A study of Mus musculus with 3 samples.

Results

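Blood endothelial cells of the mouse nasal mucosa were taken from single-cell RNA libraries of 3 treatment groups. A barcode was counted as such a cell when it held at least 500 unique molecular identifiers (UMIs, the counted RNA molecules), at least 200 genes and at most 20% mitochondrial UMIs. It also had to show a UMI of at least 3 of the 6 endothelial genes Pecam1, Cdh5, Egfl7, Flt1, Emcn and Kdr, and none of Prox1 (the master regulator of lymphatic endothelium) or Ptprc (the leukocyte antigen CD45). Members were thus chosen by measured values of these 8 genes, which are given only as a description. The rule gave 887 of the 32376 kept cells of the series, 391 in the library of papain with lonidamine, 305 in the papain library and 191 in the PBS library. The mice were of the strain C57BL/6J, and each group is described as having as many males as females. The group of papain with lonidamine received 20 µg papain in the nose and lonidamine (LND) at 10 mg/kg into the stomach. The papain group, the series' model of eosinophilic chronic sinusitis, received 20 µg papain in the nose and PBS into the stomach. The PBS group received PBS in the nose. Papain is a plant cysteine protease that raises allergic airway inflammation, and lonidamine is known as an inhibitor of hexokinase and of pyruvate and lactate transport. Each library holds the mucosa of a whole group mixed together, and the sources used here do not give how many mice that was. The differences between groups therefore have no replicate check, no p-value is given, and the intervals printed cover counting error only. The papain library carries the library name Fibroblast in its labels and was used under its treatment label.

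Blood endothelium lines arteries, capillaries and veins. In inflamed mucosa, the postcapillary venules are the place where leukocytes leave the blood: P-selectin and E-selectin let them roll, Vcam1 and Icam1 hold them, and chemokines shown on the vessel wall activate them. Ackr1, the atypical chemokine receptor also called the Duffy antigen, is a marker of venular endothelium that carries chemokines across the cell, whereas capillary and arterial cells express other genes, such as those for lipid uptake and Notch ligands.

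The label was checked with genes that the selection did not use. Cldn5, a tight junction protein of endothelium, stood at 1154, 1620 and 2805 CPM (counts scaled to the same UMI total in each sum) in the endothelial cells of papain with lonidamine, papain and PBS, against 25.1, 36.3 and 15.7 CPM in all other kept cells. The summed level of 15 such markers (among them Tie1, Tek, Esam and Erg) was 6582, 6770 and 7991 CPM, against 154, 138 and 79.8 CPM in the other cells, and none of the 15 was at 0. In Prox1-detected endothelial cells, the closest relatives, Cldn5 stood at 757, 1181 and 1017 CPM. Cldn5 therefore marks endothelium and does not by itself set blood apart from lymphatic vessels. The cells at the edge of the rule were less clear. Cells with 3 of the 6 markers numbered 35, 28 and 12 in the 3 libraries and had 860, 1067 and 982 CPM of Cldn5. Cells with 2 markers, just outside, numbered 44, 56 and 25 and had 155, 73.0 and 55.0 CPM of Cldn5, with 2309, 2859 and 1796 CPM of the pericyte gene Rgs5, which just inside stood at 2091 CPM with papain and lonidamine, under 100 CPM with papain and 11.7 CPM with PBS. Pecam1, which the rule did use, stood at 353, 164 and 152 CPM just inside and at 36.8, 52.9 and 40.5 CPM just outside.

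The endothelial cells held 2843001, 2647655 and 2145868 UMIs in all, with a median of 5123, 5729 and 6229 UMIs and of 2283, 2384 and 2625 genes per cell. RNA of other cells was present in them. Cells with at least 3 genes of one of 6 lists for other cell types, called mixed cells here, made up 21.5%, 15.1% and 37.7% of the endothelial cells and held 35.9%, 25.5% and 60.9% of their UMIs. By Xist and Y-linked transcripts, 85.4%, 76.1% and 62.1% of the endothelial cells that could be sexed were female, against 83.2%, 73.3% and 56.7% of the other kept cells. The 18S ribosomal RNA took 4.99%, 4.76% and 1.58% of endothelial UMIs. These differences ran along with the groups, and their part in the results was not tested except where values without mixed cells or by sex are given. No endothelial barcode was shared between the libraries, although 22 to 38 barcodes of any kind were.

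Blood endothelial cells made up 3.22% of kept cells with papain and lonidamine (95% exact Clopper-Pearson interval 2.91 to 3.55) and 2.85% with papain (2.54 to 3.18), against 2.01% with PBS (1.74 to 2.31). The intervals of papain and PBS did not overlap, while those of the 2 papain libraries did. The order was the same over cells without a Ptprc UMI, where the shares were 4.15%, 3.59% and 2.51%, and without mixed cells, where they were 2.53%, 2.42% and 1.25%. It was also the same among female cells, at 3.54%, 3.09% and 2.30%, and among male cells, at 3.02%, 2.68% and 1.85%. The closest relatives, cells that met the rule but showed Prox1, stood in the same order at 0.963%, 0.588% and 0.431% of kept cells. Each share is relative to the other cells captured in the same library.

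Ackr1 was detected in 19.2% of the endothelial cells with papain and lonidamine (75 of 391, interval 15.4 to 23.4) and in 16.7% with papain (51 of 305, 12.7 to 21.4), against 9.95% with PBS (19 of 191, 6.10 to 15.1). After each cell was thinned to 2000 UMIs, the shares were 9.22% (6.39 to 12.8), 8.48% (5.51 to 12.4) and 6.25% (3.16 to 10.9), with all intervals overlapping. At full depth the interval with papain and lonidamine lay just above that with PBS, and the interval with papain overlapped both. Epithelial marker cells, which should lack the gene, had an Ackr1 UMI in 0.815%, 0.929% and 1.89% at full depth (median 8894, 9581 and 10174 UMIs) and in 0.177%, 0.168% and 0.190% at 2000 UMIs. In olfactory neuron marker cells the shares were 5.14%, 4.66% and 5.38%, and 1.92%, 1.64% and 1.66% at 2000 UMIs. In the RefSeq GRCm38.p6 annotation Ackr1 overlaps the span of Cadm3, an adhesion molecule gene that stood at 21.9, 25.8 and 23.7 CPM in those neurons and at 4.73, 4.04 and 4.06 CPM in Ackr1-detected endothelial cells, where Ackr1 itself stood at 260, 313 and 170 CPM. In Prox1-detected endothelial cells Ackr1 was detected in 16.2% (19 of 117), 27.0% (17 of 63) and 4.88% (2 of 41). Over all blood endothelial cells the Ackr1 level was 58.0 and 58.5 CPM in the papain libraries with and without lonidamine, against 19.6 CPM with PBS.

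**Figure D1:**
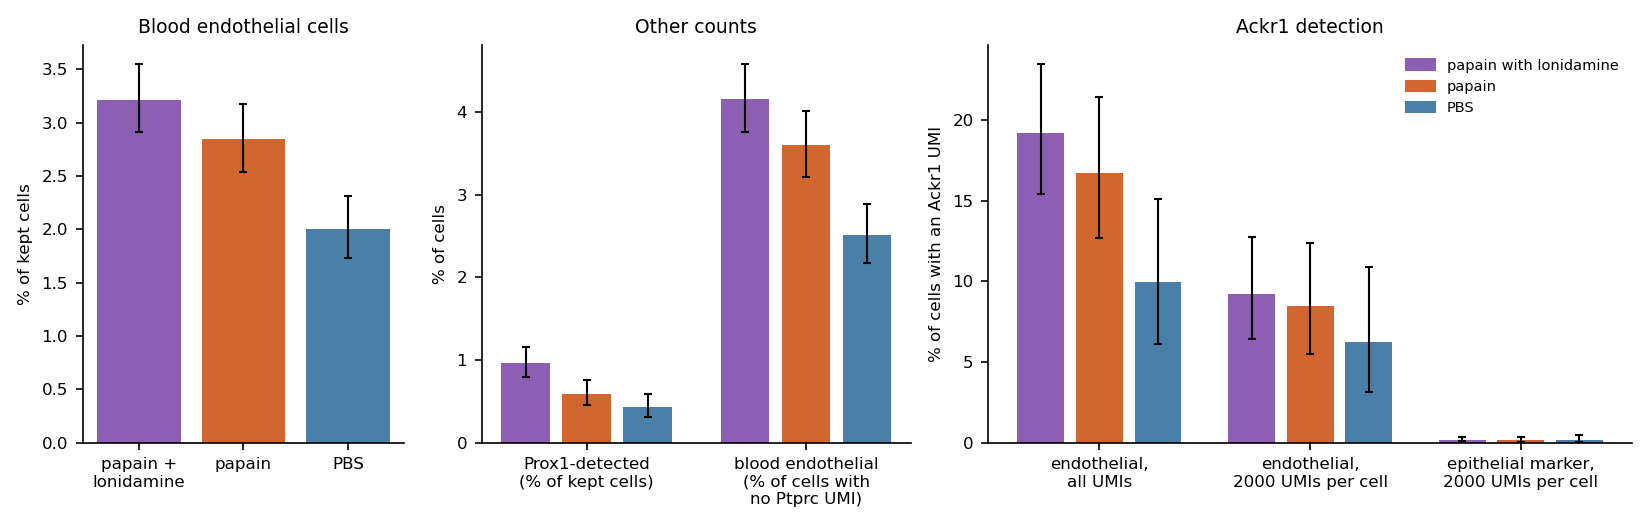
Shares in percent of cells (vertical axes) in the libraries of papain with lonidamine, papain and PBS, with 95% exact intervals for counting error: endothelial cells of kept cells, Prox1-detected endothelial cells and endothelial cells among cells without a Ptprc UMI, and cells with an Ackr1 UMI. The endothelial share was 3.22%, 2.85% and 2.01%, and the Ackr1 bars come closer together at 2000 UMIs per cell, at 9.22%, 8.48% and 6.25%.

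Papain against PBS asked what the nasal challenge did to the vessel lining. P-selectin, several chemokines, the cytokines Il6 and Csf3, and interferon- and NF-kB-responsive genes were higher with papain, while the capillary genes Gpihbp1 and Btnl9, the glycolytic genes Aldoa and Eno1 and the stress cytokine Gdf15 were lower. A gene was tested with at least 50 UMIs in the 2 sums and called at a 2-fold difference of the CPM. Of 8895 genes tested, 439 were called higher with papain (4.94%) and 392 lower (4.41%), or 9.34% in either direction, and the median log2 ratio of all genes was -0.09. Against those shares, the lists for venous cells, chemokines, NF-kB and interferon each had a larger share of their tested members called higher, from 8 of 18 to 12 of 20. The lists were chosen with earlier results of these data known, so these counts describe the lists and do not stand as independent evidence. Some summed lists also differed between papain and PBS in all other kept cells. NF-kB genes stood at 10863 and 6164 CPM in endothelial cells and at 3820 and 2186 CPM in other cells. Chemokine genes stood at 4191 and 1805 CPM, against 1413 and 624 CPM in other cells. Venous genes stood at 7052 and 3008 CPM, against 385 and 187 CPM. Interferon genes stood at 4394 and 1609 CPM, against 441 and 323 CPM. Without mixed cells 6 of 12 venous, 7 of 13 chemokine, 7 of 18 NF-kB and 8 of 19 interferon genes were called higher. Over all genes tested without mixed cells, 364 of 6900 were called higher and 367 lower. Of 71 genes called in any of the endothelial lists, 48 were called in the same direction without mixed cells, 15 were not called, and 8 were under the minimum of 50 UMIs. In female cells alone 39 were called in the same direction, 22 were not called and 10 were under the minimum. The same counts in male cells were 54, 1 and 16. Over all genes tested, 277 of 6539 were called higher and 262 lower in female cells. In male cells 314 of 4498 were called higher and 341 lower.

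Among 12 venous and postcapillary genes, 7 were called higher and none lower, with a median log2 ratio of 1.07. Selp, which encodes the P-selectin that endothelial cells store in granules and show on their surface for rolling leukocytes, stood at 2890 CPM with papain and lonidamine, 2498 CPM with papain and 345 CPM with PBS, a papain-to-PBS log2 ratio of 2.86 (interval 2.75 to 2.97). The difference was in the number of cells as well as in the level: at 2000 UMIs per cell, Selp was detected in 66.6%, 56.5% and 20.5% of cells. Its log2 ratio was 2.78 without mixed cells, 2.58 in female cells and 3.32 in male cells. Sele, the cytokine-induced E-selectin, stood at 653, 740 and 262 CPM in the same order, a papain-to-PBS log2 ratio of 1.49 (1.36 to 1.63). Vcam1, which binds integrins of eosinophils and lymphocytes, stood at 752, 917 and 350 CPM, a log2 ratio of 1.39 (1.27 to 1.51), which was 0.92 in female cells and 1.65 in male cells. For each of these adhesion genes both papain libraries lay above the PBS library. Vwf, the von Willebrand factor stored with P-selectin, stood at 954, 860 and 390 CPM (log2 ratio 1.14), and Il6st, the signalling chain shared by receptors of the Il6 family, at 574, 464 and 219 CPM (1.08). Slco2a1, a prostaglandin transporter, stood at 434, 288 and 138 CPM (1.06, but 0.94 without mixed cells and 0.55 in female cells). The venous transcription factor Nr2f2 (255, 219 and 195 CPM) and the venous receptor Ephb4 (63.0, 53.6 and 85.3 CPM) were not called, nor was Lrg1 (767, 771 and 816 CPM).

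The other adhesion genes did not follow the selectins. Of 10 tested in the leukocyte adhesion list, none was called higher and Icam2, which resting endothelium carries, was called lower, at 51.7, 81.2 and 178 CPM (papain-to-PBS log2 ratio -1.13, interval -1.38 to -0.89), but at -0.98 without mixed cells and -0.82 in female cells, where it was not called. Icam1, the integrin ligand for firm adhesion, stood at 1561, 1830 and 1212 CPM, a log2 ratio of 0.59 (0.53 to 0.66) that missed the 2-fold call. Madcam1, the addressin of gut and nasal lymphoid vessels, had no UMI in any of the 3 libraries, where 3 UMIs would have been 1.06, 1.13 and 1.40 CPM.

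Of 15 chemokine and growth factor genes tested, 8 were called higher with papain and 1 lower, with a median log2 ratio of 1.16. Cxcl10, an interferon-induced ligand of Cxcr3 on T cells, stood at 998 and 1233 CPM in the libraries with papain and lonidamine and with papain, against 123 CPM with PBS, a log2 ratio of 3.32 (3.14 to 3.51). Cxcl9, which binds the same receptor, stood at 80.5, 78.6 and 5.59 CPM, a log2 ratio of 3.76 (2.98 to 4.79) that rests on 12 UMIs with PBS. Csf3, the growth factor of neutrophils, stood at 282, 378 and 29.8 CPM, a log2 ratio of 3.65 (3.30 to 4.05). In all of these the PBS library was the low one, and 4 cells of 176 with PBS still had a Csf3 UMI at 2000 UMIs per cell, against 83 of 347 and 64 of 283. Il6, a cytokine of the acute response, stood at 278, 264 and 23.8 CPM, a log2 ratio of 3.46 (3.06 to 3.91). The neutrophil attractants Cxcl1 (821, 1145 and 511 CPM, log2 ratio 1.16) and Cxcl2 (173, 189 and 83.9 CPM, 1.17) were called as well, Cxcl2 at 0.62 in female cells. Cxcl16 (26.7, 39.3 and 15.8 CPM, 1.30) was at 0.59 without mixed cells. Ccl2, a monocyte attractant, was called lower at 9.50, 9.82 and 27.5 CPM (-1.47), but its log2 ratio was 0.10 without mixed cells, on 36 UMIs. Genes that did not follow were the homeostatic Cxcl12 (207, 236 and 345 CPM) and the membrane-bound Cx3cl1 (146, 177 and 260 CPM).

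**Figure D2:**
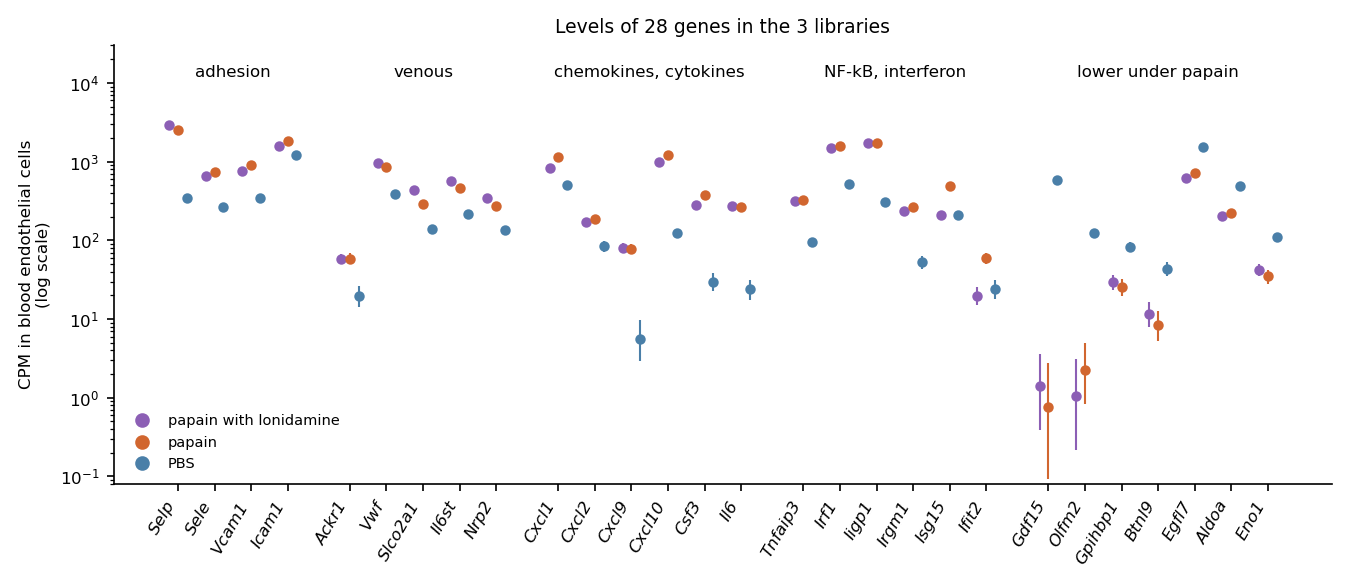
Levels in blood endothelial cells in CPM (vertical log axis) of 28 genes in the libraries of papain with lonidamine, papain and PBS, with 95% intervals for counting error. Selp stood at 2890, 2498 and 345 CPM and Gdf15 at 1.41, 0.755 and 587 CPM, and for Isg15 the papain library lay highest, at 211, 485 and 213 CPM.

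NF-kB is the transcription factor that inflammatory cytokines switch on in endothelium. Of 18 genes tested in its list, 8 were called higher with papain and none lower, with a median log2 ratio of 0.96. Rel, one of its subunits, stood at 159, 156 and 33.1 CPM with papain and lonidamine, papain and PBS, a papain-to-PBS log2 ratio of 2.23 (1.87 to 2.62). Tnfaip3, which encodes the feedback inhibitor A20, stood at 316, 330 and 94.1 CPM (1.81, 1.59 to 2.04). Irf1, a transcription factor of inflammatory and interferon responses, stood at 1477, 1604 and 519 CPM (1.63, 1.53 to 1.73). All 3 held above 2-fold without mixed cells and in each sex. Nfkbia, the classical feedback inhibitor, stood at 1924, 2533 and 2086 CPM and was not called.

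Of 20 interferon-stimulated genes, 12 were called higher with papain and none lower, with a median log2 ratio of 1.07. The immunity-related GTPases led. Iigp1 stood at 1741 CPM with papain and lonidamine and 1711 CPM with papain, against 309 CPM with PBS (log2 ratio 2.47, 2.35 to 2.59), and Irgm1 at 236, 267 and 53.1 CPM (2.33, 2.04 to 2.63). Ifit1, an RNA-binding antiviral protein, stood at 264, 292 and 69.4 CPM (2.07, 1.82 to 2.34), and the guanylate-binding Gbp2 at 112, 136 and 41.5 CPM (1.71, 1.38 to 2.07). The Gbp and Ifit families have close paralogs, so the split of reads within each family is uncertain. In female cells Isg15, Ifi44, Gbp4, Igtp and Oasl2 were not called, with log2 ratios from 0.67 to 0.83. Bst2 (188, 246 and 291 CPM) and Rsad2 (53.1, 74.4 and 66.6 CPM), both antiviral, were not called. Of 11 antigen presentation genes, Tap1, the peptide transporter, was called higher at 117, 132 and 56.9 CPM (1.21, but 0.99 without mixed cells), and so was Cd274, which encodes PD-L1, at 24.3, 31.3 and 13.0 CPM (1.25), while the class I genes H2-K1, H2-D1 and B2m were within 2-fold.

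The 250 bases before the transcription start of 4 of these genes are shown because their letters hold the kappa-B motif (bound by NF-kB) or the interferon-stimulated response element (ISRE, TTTCNNTTTC). The sequences are from RefSeq, build GRCm38.p6, written 5′ to 3′ on the strand of the gene, with matches on either strand in capitals, and overlapping matches counted separately. The kappa-B motif was present in 5.93% and the ISRE in 2.98% of 32851 promoter windows of this length. A match is a description of the letters, not evidence of binding.
Cxcl10 (chr5:92348890-92349139, minus strand): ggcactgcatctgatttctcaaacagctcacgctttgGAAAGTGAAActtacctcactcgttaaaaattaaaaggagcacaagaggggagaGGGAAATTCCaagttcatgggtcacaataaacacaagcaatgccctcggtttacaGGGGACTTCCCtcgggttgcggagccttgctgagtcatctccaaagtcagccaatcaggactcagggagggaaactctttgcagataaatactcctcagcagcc
Cxcl1 (chr5:90890995-90891244, plus strand): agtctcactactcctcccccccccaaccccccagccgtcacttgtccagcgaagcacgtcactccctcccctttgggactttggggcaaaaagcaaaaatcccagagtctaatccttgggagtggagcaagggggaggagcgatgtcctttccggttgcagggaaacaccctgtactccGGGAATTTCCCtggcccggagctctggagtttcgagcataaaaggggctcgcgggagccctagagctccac
Il6 (chr5:30012864-30013113, plus strand): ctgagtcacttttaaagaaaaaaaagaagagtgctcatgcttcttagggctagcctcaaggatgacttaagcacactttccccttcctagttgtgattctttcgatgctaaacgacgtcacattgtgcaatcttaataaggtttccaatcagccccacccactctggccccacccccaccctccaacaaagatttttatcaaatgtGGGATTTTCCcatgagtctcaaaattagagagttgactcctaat
Isg15 (chr4:156200819-156201068, minus strand): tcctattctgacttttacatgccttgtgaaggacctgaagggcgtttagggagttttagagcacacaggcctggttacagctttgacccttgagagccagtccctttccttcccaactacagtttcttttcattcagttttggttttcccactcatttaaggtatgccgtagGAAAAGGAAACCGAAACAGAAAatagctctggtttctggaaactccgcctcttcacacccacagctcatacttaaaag
Cxcl10 held 3 kappa-B matches, 2 of which overlap, and 1 ISRE. Cxcl1 held 2 kappa-B matches that are the same stretch read on both strands, as did Cxcl2. Il6 held 1 kappa-B match at positions -44 to -35 from the start, and Isg15 held 3 overlapping ISRE matches between positions -78 and -57. The windows of Selp, Sele, Icam1, Cxcl9, Ackr1 and Gdf15 held neither motif, which says only that these letters are not in these windows. Promoters of 309 of the 410 list genes were in the table, without Vcam1, Csf3 and Iigp1.

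**Figure D3:**
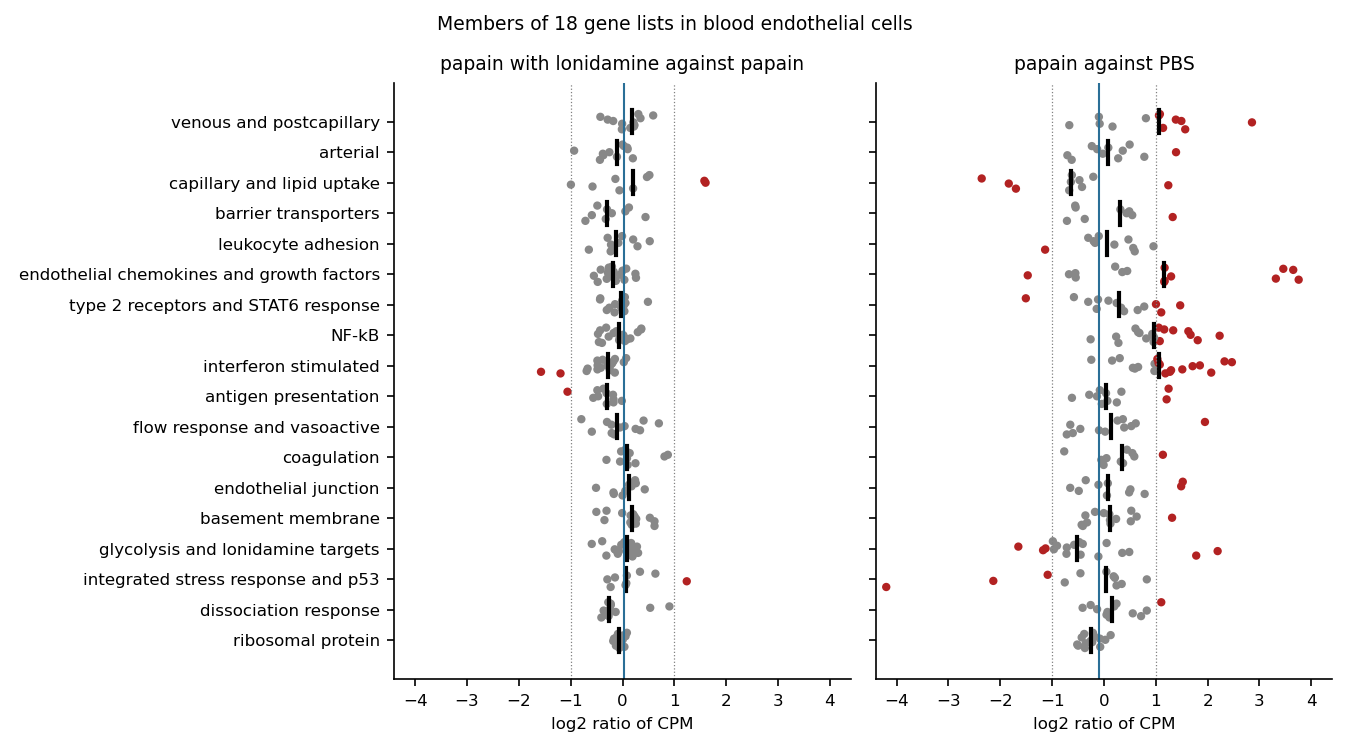
Log2 ratio of CPM (horizontal axis) of each tested member of 18 gene lists, for papain with lonidamine against papain and for papain against PBS: a dot is a gene, red when at least 2-fold apart, a black bar the list median, a blue line the median of all genes tested (0.04 and -0.09), dotted lines 2-fold. The Gdf15 dot, at -9.28, is drawn at the left edge of its panel. Venous, chemokine, NF-kB and interferon lists had medians of 1.07, 1.16, 0.96 and 1.07 against PBS, and 0.18, -0.18, -0.06 and -0.29 for lonidamine.

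Each other endothelial list had fewer members called than the venous, chemokine, NF-kB and interferon lists. Of 11 arterial genes, only Dll4, a Notch ligand of arteries and sprouting cells, was called, at 170, 202 and 76.9 CPM with papain and lonidamine, papain and PBS (papain-to-PBS log2 ratio 1.39, 1.14 to 1.65). Of 8 Notch genes, the target Hes1 was called higher at 1055, 1037 and 299 CPM (1.79, 1.67 to 1.92) and the ligand Dll1 lower at 21.1, 21.9 and 51.3 CPM (-1.22, but -0.32 in female cells). The Notch list summed to 1603 CPM with papain and 905 CPM with PBS, and to 782 and 367 CPM in all other kept cells. Ptgs2, the inducible cyclooxygenase, was the only one of 12 flow and vasoactive genes called, at 426, 524 and 136 CPM (1.95, 1.77 to 2.14), while the flow-induced Klf2 (1473, 1647 and 2707 CPM) and Klf4 (881, 1019 and 1545 CPM) had log2 ratios of -0.72 and -0.60. Gja1, a gap junction protein, and Cldn12 were called higher among 11 junction genes, Gja1 at 333, 295 and 105 CPM (1.49), and Cldn12 had a log2 ratio of 1.52 that was 0.75 without mixed cells. A list of type 2 cytokine receptors and response genes also held receptors of other cytokines, among them Il1r1 and Il6ra. Of its 14 tested genes, Il4ra, Cish and Il1r1 were called higher and Il6ra lower. Il4ra, the receptor chain shared by Il4 and Il13, stood at 39.0, 43.4 and 20.0 CPM (1.11, 0.60 to 1.66). In female cells neither Il4ra (0.59) nor Il1r1 (0.56) was called. Of 13 genes of the VEGF and angiopoietin systems, Nrp2 and Bmp4 were called higher and Vegfb lower. Bmp4 had a log2 ratio of 1.30 that was 0.87 without mixed cells and 0.11 in female cells, and Vegfa stood at 15.1, 12.8 and 12.6 CPM and was not called. Slco1a4, an organic anion transporter of vessel barriers, was the only one of 9 barrier genes called (1.33), and Nid1 the only one of 14 basement membrane genes (1.31). Neither was called without mixed cells (0.50 and 0.92) or in female cells (0.76 and 0.73). None of 7 hypoxia genes, of 14 ribosomal protein genes or of 4 proliferation genes was called. Of 12 genes that tissue digestion is known to induce, Zfp36 was called higher (1.11, but 0.88 in female cells), and the list median was 0.15.

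Of 10 capillary and lipid uptake genes, Gpihbp1, Fabp4 and Btnl9 were called lower and Cd36 higher, with a median log2 ratio of -0.63. Gpihbp1, which carries lipoprotein lipase to the capillary surface, stood at 29.2 and 25.3 CPM in the libraries with papain and lonidamine and with papain, against 82.5 CPM with PBS (-1.70, -2.13 to -1.29). Btnl9, a butyrophilin-like gene of capillary cells, stood at 11.6, 8.31 and 43.3 CPM (-2.36, -3.12 to -1.70). Both were lower in each sex and without mixed cells, though Btnl9 had only 16 UMIs in male cells. Without mixed cells 6 of 8 tested members of the list were called lower and none higher, beside 367 of all 6900 genes tested called lower. Fabp4 (-1.84) was also lower without mixed cells (-2.12) and in female cells (-2.34), and turned only in male cells, on 14 UMIs. Cd36 (1.24) turned in female cells, on 47 UMIs, and was at 0.02 without mixed cells, on 21 UMIs. Rbp7, a retinol-binding protein, stood at 21.1, 16.6 and 78.8 CPM (-2.23), and Nog, an antagonist of BMP, at 10.6, 16.6 and 83.9 CPM (-2.32).

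Of 18 genes of glycolysis and of the known targets of lonidamine, Aldoa, Pgk1 and Eno1 were called lower with papain and Hk2 and Pfkfb3 higher, with a median log2 ratio of -0.53. The list summed to 3136 CPM with papain and 5146 CPM with PBS. In all other kept cells it summed to 4173 and 6909 CPM, so the lower level was not particular to endothelium. Pgk1 had a log2 ratio of -1.13, which was -0.99 without mixed cells and -0.92 in female cells. The glycolytic enzyme genes Aldoa (202, 220 and 496 CPM with papain and lonidamine, papain and PBS, log2 ratio -1.17) and Eno1 (42.2, 34.7 and 110 CPM, -1.65) were lower in each sex and without mixed cells, and Gapdh (362, 402 and 786 CPM, -0.97) was just short of the call. Pfkfb3, whose product raises the flux through phosphofructokinase, stood at 237, 248 and 54.1 CPM (2.19, 1.91 to 2.50). Hk2, a hexokinase that lonidamine is known to inhibit, was called on 44 UMIs with papain against 10 with PBS (log2 ratio 1.78). Without mixed cells Hk2 had 2 UMIs in the 2 libraries together, too few to give a direction (-1.23).

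Gdf15, a stress-induced cytokine, was the gene furthest apart. It had 4 UMIs with papain and lonidamine and 2 with papain, against 1259 with PBS, which is 1.41, 0.755 and 587 CPM and a papain-to-PBS log2 ratio of -9.28 (interval -12.65 to -7.75). With PBS, 57 of 191 cells held it, with a median of 9 UMIs among them and 204 in the highest cell. Those 57 cells were deep, with a median of 16475 UMIs against 5268.5 in the other 134, and held 49.8% of the UMIs of all PBS endothelial cells. They carried more Olfm2, an olfactomedin family gene (233 against 18.6 CPM), and more Cldn5 (3707 against 1910 CPM) than the other PBS cells, and 43.9% of them were mixed against 35.1%. Mfsd2a (88.8 against 53.9 CPM) and Slc2a1 (1171 against 822 CPM) were also higher in them, and Selp was lower (307 against 383 CPM). Of the stress list, Asns (28.1 against 42.7 CPM), Atf3 (1385 against 1712 CPM) and Ddit3 (60.8 against 125 CPM) were lower in them. The contrast did not rest on mixed cells or on 1 sex: the log2 ratio was -9.97 without mixed cells, -8.30 in female cells and -8.51 in male cells. Other genes of the stress list differed less. Asns, the asparagine synthetase, stood at 19.0, 7.93 and 35.4 CPM (-2.13) and Phlda3, a p53 target, at 21.8, 14.0 and 29.8 CPM (-1.09), and without mixed cells both had under 50 UMIs, with log2 ratios of -2.15 and -1.52. Atf3, Atf4 and Cdkn1a were within 2-fold.

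The genes that the ranking named, among called genes with the level in endothelial cells at or above that of other cells, were in order of ratio Clca3a2, Cxcl9, Csf3, Il6, Cxcl10, Adamts4, Lepr, Selp, Ikzf4, Gbp5, Mx2 and Iigp1 on the higher side, of 282 eligible. Adamts4, an aggrecan-cleaving protease, stood at 375, 327 and 42.4 CPM with papain and lonidamine, papain and PBS (papain-to-PBS log2 ratio 2.94, 2.63 to 3.27), and Lepr, the leptin receptor, at 48.2, 25.3 and 3.26 CPM (2.87, 1.83 to 4.32). Clca3a2 had 57, 94 and 1 UMIs (5.67, 3.74 to 11.57) and has a near-identical neighbour, Clca3a1, so its count is uncertain. On the lower side, of 209 eligible, the order was Gdf15, Olfm2, Fam167a, Col23a1, Ccn3, Btnl9, Nog, Uap1l1, Exoc3l, Rbp7, Pusl1 and Renbp. Olfm2 had 3, 6 and 269 UMIs (-5.68, -7.25 to -4.65), and the collagen gene Col23a1 stood at 17.6, 17.8 and 106 CPM (-2.57, -3.07 to -2.12). Of these 24 genes, 23 remained at least 2-fold apart in the same direction in female cells and 24 in male cells and without mixed cells. The exception was Ccn3, whose log2 ratio in female cells was 0.38. These counts went by the ratio alone, with no minimum of UMIs, and Btnl9 had 16 UMIs in male cells.

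Papain with lonidamine against papain asked what the drug changed, and shares the papain library with the comparison above. Few endothelial genes differed. The adhesion, chemokine and NF-kB genes stayed within 2-fold, whereas 2 interferon-stimulated genes, Isg15 and Ifit2, were lower with lonidamine. Of 9377 genes tested, 148 were called higher with lonidamine (1.58%) and 44 lower (0.469%), or 2.05% in either direction, with a median log2 ratio of 0.04 over all genes. Without mixed cells the counts were 51 and 24 of 7757.

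None of 12 venous, 10 adhesion, 16 chemokine, 18 NF-kB and 18 glycolysis genes was called, and the list medians were 0.18, -0.13, -0.18, -0.06 and 0.08. Selp had a lonidamine-to-papain log2 ratio of 0.21 (0.16 to 0.26), Sele of -0.18 (-0.27 to -0.09) and Vcam1 of -0.29 (-0.37 to -0.20). Among these chemokines, Cxcl16 stood at -0.55 (26.7 against 39.3 CPM), Cxcl1 at -0.48 (-0.56 to -0.40) and Csf3 at -0.42 (-0.56 to -0.29), and Il6 stood at 0.07 (-0.08 to 0.22). Counting error alone is small here, so the intervals given here leave out a 2-fold difference between these 2 libraries, though not between animals. The sexes went apart: in 48 male cells with lonidamine and 57 with papain the log2 ratios were -0.68 for Selp, -2.24 for Csf3, -1.86 for Il6 and -1.91 for Cxcl10, against 0.70, -0.00, 0.51 and 0.11 in female cells. These differences were not tested, and Ackr1 was detected in 12.5% of the male cells with lonidamine and 28.1% of those with papain.

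Of 20 interferon-stimulated genes, none was called higher and 2 were called lower with lonidamine, with a list median of -0.29. Isg15, a ubiquitin-like modifier, stood at 211 CPM with papain and lonidamine and 485 CPM with papain, a log2 ratio of -1.20 (-1.34 to -1.06), and at 213 CPM with PBS. At 2000 UMIs per cell it was detected in 23.3% (19.0 to 28.2), 46.3% (40.4 to 52.3) and 27.3% (20.8 to 34.5) of cells in that order, so the papain library alone stood high. The lonidamine-to-papain log2 ratio was -1.20 in female cells, -1.06 in male cells and -1.15 without mixed cells. Ifit2, an antiviral protein, stood at 19.7, 58.9 and 24.2 CPM (-1.57, -2.05 to -1.13), but 1 papain cell held 22.4% of its papain UMIs and the ratio was -0.28 in male cells and -0.97 without mixed cells. Ifit3 (52.8, 85.4 and 43.3 CPM, -0.69) and Irf7, the regulator of interferon genes (41.2, 65.7 and 43.3 CPM, -0.67), leaned the same way without a call. Iigp1 (0.02) and Irgm1 (-0.18), which led the list against PBS, did not differ by 2-fold.

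The ranking named 10 genes higher with lonidamine: Ces2e, Bgn, 4933407K13Rik, Fam124a, Fbxo42, Fam174b, Prps1, Itprip, Asb4 and Lhx6. Bgn, the matrix proteoglycan biglycan, stood at 133, 48.0 and 62.9 CPM with papain and lonidamine, papain and PBS (lonidamine-to-papain log2 ratio 1.47, 1.18 to 1.77), beside fibroblast marker genes at a summed 178, 61.6 and 133 CPM, and its ratio was 1.28 without mixed cells. Ces2e, a carboxylesterase, had 74 and 17 UMIs (1.99, 1.24 to 2.87), with a ratio of -0.04 in male cells. On the lower side, of 16 eligible, the ranking named Srarp, Ifit2, Tango2, Lipe, Spock2, Isg15, Eps8l2, Tmem255b, Letm2, H2-K2, Cmc4 and Gvin2. Spock2, a testican proteoglycan, stood at 103, 236 and 197 CPM (-1.20), with 0.83 in male cells. H2-K2 and Gvin2 belong to families with close copies, so their counts are uncertain. Of these 22 genes, 18 remained at least 2-fold apart without mixed cells and 10 in male cells, by the ratio alone with no minimum of UMIs. Among the lists, Fabp4 (96.7, 31.7 and 114 CPM, 1.60) and Fabp5 (64.7, 21.5 and 33.6 CPM, 1.58), lipid-binding proteins, and Apln (20.8, 8.31 and 46.1 CPM, 1.30) and Aplnr (28.5, 12.1 and 10.3 CPM, 1.22), the apelin ligand and receptor of sprouting vessels, were called higher. Without mixed cells Fabp5 had a log2 ratio of -0.20, on 45 UMIs.

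Neutrophil, erythroid, pericyte, fibroblast, epithelial, secreted epithelial and lymphatic markers were highest with lonidamine over all endothelial cells. Without mixed cells erythroid and fibroblast genes were highest with PBS, and epithelial and secreted epithelial genes with papain. Neutrophil markers summed to 483, 25.3 and 25.6 CPM with papain and lonidamine, papain and PBS, and 4 of 4 tested were called higher with lonidamine than with papain. In that library 5 cells held 85.8% of these UMIs, and 1 held 47.0%. Without mixed cells the neutrophil sums were 72.4, 27.4 and 19.1 CPM. Erythroid genes, including the near-identical alpha globins, summed to 271, 3.78 and 145 CPM, and 1 cell held 84.2% of them with lonidamine and 1 cell 92.6% with PBS. Without mixed cells the erythroid sums were 44.4, 3.55 and 355 CPM. Pericyte and smooth muscle markers summed to 642, 532 and 325 CPM, and to 116, 89.2 and 51.3 CPM without mixed cells. Olfactory neuron markers were highest with PBS, at 979, 681 and 1648 CPM, and at 107, 135 and 433 CPM without mixed cells. Products secreted by epithelium summed to 3251, 1506 and 2406 CPM, and to 613, 680 and 257 CPM without mixed cells. Lymphocyte markers stood at 2.46, 2.64 and 10.3 CPM, macrophage markers at 48.9, 31.0 and 69.4 CPM, epithelial markers at 734, 693 and 492 CPM, and lymphatic markers other than Prox1, which the rule holds at 0, at 195, 131 and 177 CPM. In all other kept cells lymphatic markers, Prox1 included, summed to 101, 81.6 and 132 CPM. Lymphatic genes were not among the lists that define mixed cells, and without mixed cells lymphatic markers summed to 225, 156 and 112 CPM.

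Ackr1-detected cells were then set against Ackr1-undetected cells within each library. The genes called higher in detected cells included 4 of 10 venous genes and Cxcl10, Csf3 and Il6, and those called lower included Cxcl12, Cldn5, 1 of 8 arterial genes (Sema3g) and 1 of 8 barrier genes (Mfsd2a). There were 145 detected cells against 742 undetected ones. A gene was called when it was at least 2-fold apart in the same direction in all 3 libraries, which held for 32 of 5864 genes on the higher side (0.546%) and 62 on the lower side (1.06%), 1.6% in either direction. The detected cells were deeper, with medians of 7177, 8218 and 10733 UMIs in papain with lonidamine, papain and PBS, against 4790.5, 5339.5 and 6003.5 in undetected cells. Undetected cells can hold Ackr1 RNA that was not sampled, and the PBS library had 19 detected cells. Of the detected cells 21, 9 and 12 were mixed, against 63, 37 and 60 of the undetected cells. Olfactory neuron markers summed to 882, 699 and 5780 CPM in detected cells, against 1007, 677 and 1111 CPM in undetected cells, and neutrophil markers to 1082, 20.2 and 24.3 CPM, against 311, 26.5 and 25.8 CPM. The part of this RNA in the differences between states was not tested beyond the values without mixed cells. Without mixed cells, which leaves 7 detected cells with PBS, 22 genes were called higher and 45 lower.

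The same venous list had 4 of 10 tested members called higher in Ackr1-detected cells (Vwf, Lrg1, Selp and Slco2a1) and none lower. Selp stood at 6054, 5984 and 1034 CPM in detected cells with papain and lonidamine, papain and PBS, against 1982, 1696 and 255 CPM in undetected cells, with detected-to-undetected log2 ratios of 1.61, 1.82 and 2.02. Vwf stood at 1945, 1790 and 722 CPM against 670, 647 and 347 CPM (1.54, 1.47 and 1.06). Papain and Ackr1 state therefore both went with higher Selp, and undetected cells of either papain library had more Selp than detected cells with PBS. Cxcl10, Csf3 and Il6 were called higher among the chemokines: Csf3 stood at 719, 1200 and 211 CPM against 157, 189 and 6.32 CPM, and Il6 at 465, 483 and 142 CPM against 224, 214 and 8.42 CPM. Without mixed cells the detected-to-undetected log2 ratios in the 3 libraries were 1.59, 1.91 and 2.87 for Selp and 2.62, 2.34 and 5.31 for Csf3, and Cxcl10, at 2.43 with papain, stood at -0.92 with PBS. No gene of the NF-kB list and none of the adhesion list was called, and of the interferon list only Rsad2 was called, on the lower side.

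The ranking named Csf3, Hamp, Clca3a1, Tnfsf8, Mctp1, Selp, Slco2a1, Meox1, Rnf19b, Cxcl10, Ptgs2 and Nrp2 on the higher side, of 30 eligible. Hamp, which encodes the iron hormone hepcidin, stood at 172, 168 and 523 CPM in detected cells of papain with lonidamine, papain and PBS, against 12.2, 37.6 and 32.1 CPM in undetected cells, but was found in 3.32%, 6.23% and 4.19% of endothelial cells and 1 cell held 49.5% of its PBS UMIs. Tnfsf8, the ligand of CD30, stood at 183, 145 and 170 CPM against 53.9, 43.7 and 39.5 CPM, alike with and without papain. Ptgs2 stood at 828, 1386 and 292 CPM against 311, 326 and 115 CPM.

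On the lower side, of 56 eligible, the ranking named Sema3g, Cxcl12, Mfsd2a, Spock2, Edn3, Slc7a8, Slc9a3r2, Gstm7, Fbln2, Reck and Nfam1, among others. Sema3g, a semaphorin of arterial cells, had no UMI in the detected cells of any library, against 33.5, 61.3 and 43.7 CPM in undetected cells, which is at least 7.08-fold, 10.1-fold and 3.59-fold lower by a floor of 3 counts per library. Cxcl12 stood at 20.5, 28.3 and 32.5 CPM in detected cells, against 261, 284 and 385 CPM in undetected cells, with log2 ratios of -3.62, -3.28 and -3.48. Mfsd2a, a lipid transporter of barrier vessels, stood at 3.15, 0 and 8.11 CPM against 33.0, 53.4 and 79.5 CPM. Cldn5 was the one general endothelial marker called, at 577, 606 and 1278 CPM against 1320, 1853 and 3004 CPM.

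**Figure D4:**
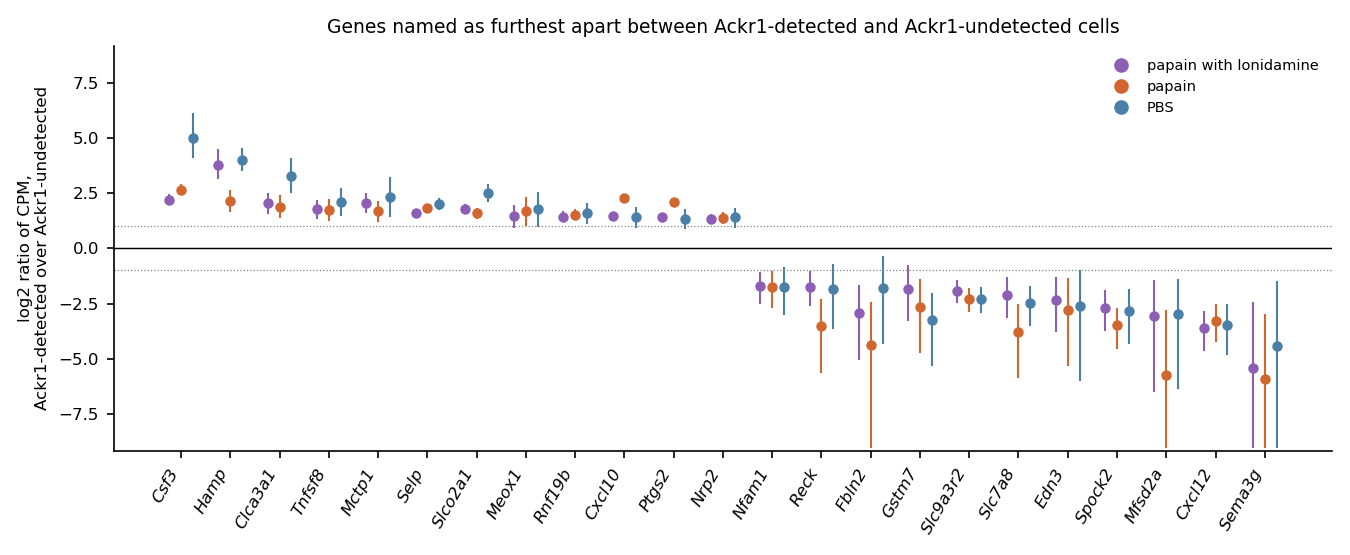
Log2 ratio of CPM of Ackr1-detected over Ackr1-undetected endothelial cells (vertical axis) for genes named by the ranking, in the libraries of papain with lonidamine, papain and PBS, with 95% intervals for counting error and dotted lines at 2-fold. Points lie on 1 side of 0 in all 3 libraries because the ranking asked for it, and bars that reach the lower edge belong to genes with few or no UMIs in detected cells, such as Sema3g.

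Papain was also set against PBS within each Ackr1 state. Within Ackr1-detected cells 268 of 2617 genes were called higher with papain (10.2%) and 134 lower (5.12%), 15.4% in either direction. Within Ackr1-undetected cells 388 of 8400 were called higher (4.62%) and 362 lower (4.31%), 8.93% in either direction. The venous list had 5 of 10 tested genes called higher in detected and 4 of 10 in undetected cells, NF-kB 7 of 15 and 8 of 18, and interferon 9 of 13 and 11 of 20, with none lower. Selp had papain-to-PBS log2 ratios of 2.53 (2.35 to 2.72) in detected and 2.73 (2.59 to 2.87) in undetected cells. Csf3 had 2.50 (2.10 to 2.95) in detected and 4.84 (4.08 to 5.86) in undetected cells, and Il6 had 1.75 (1.25 to 2.32) and 4.62 (3.95 to 5.48). The intervals of Csf3 and Il6 did not overlap between the states, but with PBS the detected state is 19 cells and the difference between states was not tested. With PBS, Gdf15 stood at 661 CPM in undetected cells and at 16.2 CPM in the 19 detected cells, where 3 counts are 12.2 CPM. Of the 57 PBS cells that held Gdf15, 3 were Ackr1-detected.

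Papain with lonidamine against papain gave few calls in either state, 60 of 3851 genes higher (1.56%) and 27 lower (0.701%) within Ackr1-detected cells (2.26% in either direction), and 143 of 8700 higher (1.64%) and 38 lower (0.437%) within Ackr1-undetected cells (2.08% in either direction). Isg15 was lower with lonidamine in both, at 144 against 412 CPM in detected cells (log2 ratio -1.52) and at 231 against 501 CPM in undetected cells (-1.12). Cxcl10 and Csf3 stood lower in detected cells, at 1981 against 3489 CPM (-0.82) and 719 against 1200 CPM (-0.74), and in undetected cells at 716 against 714 CPM (0.00) and 157 against 189 CPM (-0.27), none of which reached 2-fold.

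**Figure D5:**
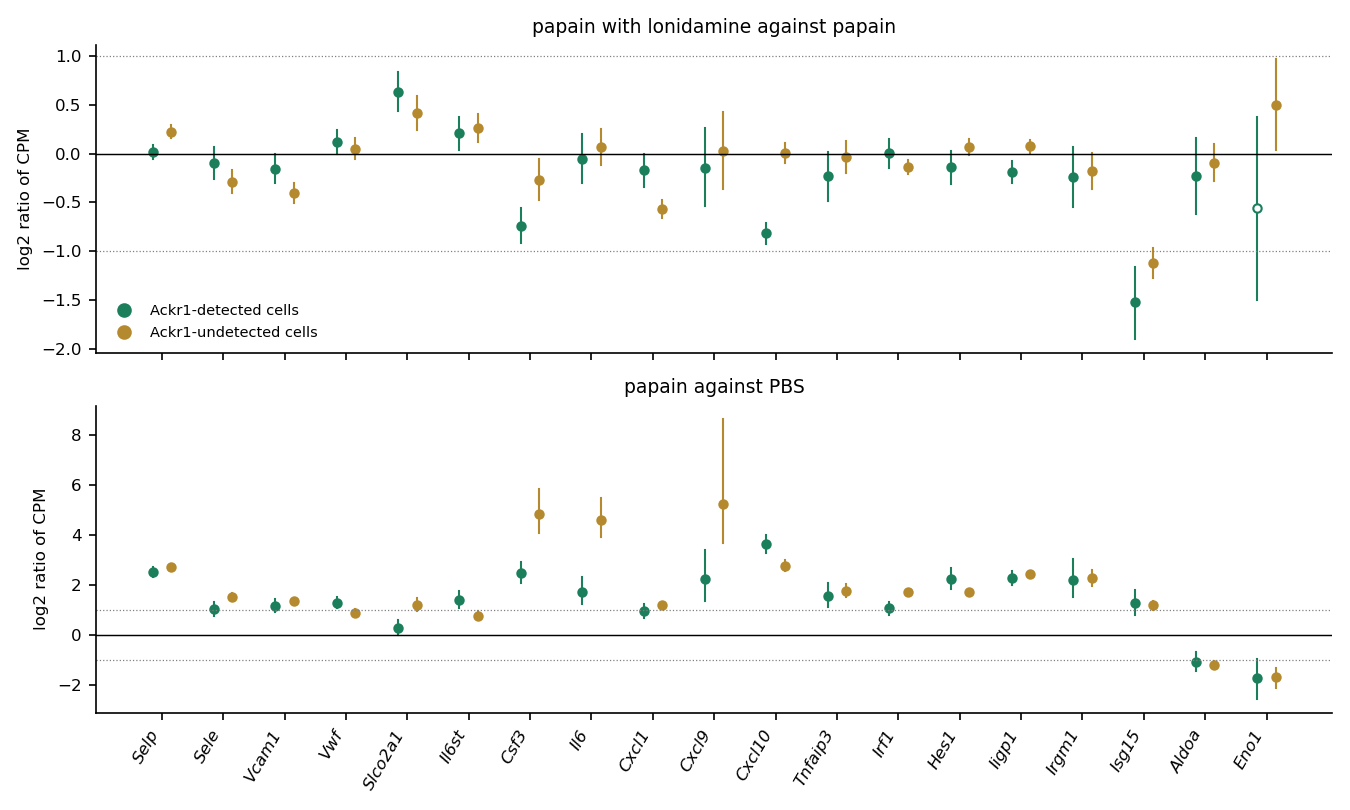
Log2 ratio of CPM (vertical axis) within Ackr1-detected and within Ackr1-undetected endothelial cells, for papain with lonidamine against papain and for papain against PBS, with 95% intervals for counting error, dotted lines at 2-fold and open circles for genes with under 50 UMIs in the 2 sums. Selp lies at 2.53 and 2.73 against PBS in the 2 states, and Isg15 at -1.52 and -1.12 for lonidamine.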

How the data were processed

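The deposited files, 1 per group, hold raw UMI counts of 55357 genes in each barcode, per the file headers, with no scaling. Per the labels' protocols, mucosa was digested with collagenases and Dispase and captured with 10x Genomics chemistry. The submitters' processing notes name Cell Ranger 2.1.1 and build GRCm39, and the file headers name version 7.1.0. Barcodes numbered 12598, 11071 and 9740 (papain with lonidamine, papain, PBS), with 89164040, 86197965 and 82399462 UMIs, and 12149, 10712 and 9515 were kept. No source used here says whether the submitters removed doublets. Scrublet (scanpy 1.11.5) called 2.16%, 1.76% and 1.44% of kept cells doublets, among them 19, 6 and 0 endothelial cells, which were kept in the main values and left out as an alternative.

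Counts of the endothelial cells were summed per library and divided by the sum to give CPM (Python 3.11.15, numpy 2.4.6, scipy 1.17.1). Log2 ratios had 0.5 counts added, and the 95% bounds treat one count as a binomial draw from the pair. UMIs of a cell are not independent samples of a group, so intervals and floors (3 counts) cover counting error only, and with 1 library per group no test was made. The ranking named, per comparison, the 12 highest and 12 lowest called genes detected in at least 10% of endothelial cells of the library where they are higher, with a CPM there at or above that of the other kept cells, without mitochondrial, 18S, Xist and Y-linked genes. For Ackr1 state it went by the ratio closest to 0 of the 3 libraries, and 1 gene it named is not reported here. The members, the 35 gene lists and the alternatives were chosen with earlier results of these data known. The arithmetic was checked on independent Poisson counts simulated at the depths of the libraries. That setting leaves out UMIs concentrated in single cells, so it says nothing of how the intervals behave there.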

Additional observations from a re-analysis of the deposited data

Results flagged for a closer look

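Bgn, which encodes biglycan, was at least 2-fold apart between papain and PBS in opposite directions in the sexes: its log2 ratio was -1.09 in female endothelial cells (74 UMIs with papain, 88 with PBS) and 1.16 in male ones (35 and 20 UMIs). The difference between the sexes was not tested.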

How the results depend on the processing

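No paired analysis was possible because each group is 1 library. Values are given for papain with lonidamine, papain and PBS in that order. The endothelial share of kept cells was 3.58% and 3.37% in the 2 papain libraries with at least 2 markers, 2.53%, 2.42% and 1.25% without mixed cells, 2.57%, 2.46% and 1.27% without doublets and mixed cells (an alternative added after the data were seen), and 4.15%, 3.59% and 2.51% over cells without a Ptprc UMI. The Ackr1-detected share was 12.5% and 28.1% in male cells of the papain libraries, 5.88% with PBS without mixed cells (with or without doublets), 9.22% and 8.48% in the papain libraries at 2000 UMIs, and 12.02%, 9.84% and 5.76% with at least 2 Ackr1 UMIs.

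For papain against PBS, the genes called were 277 higher in female cells, 189 higher and 152 lower at 2000 UMIs, and 612 lower with the mean of per-cell CPM. They were 730 and 624, 184 and 137, and 3844 and 3099 with minimums of 20, 200 and 1 UMIs. For papain with lonidamine against papain, they were 75 lower with at least 2 markers, 52 higher in male cells, 51 higher and 24 lower without mixed cells, 50 and 24 without doublets too, 48 and 12 at 2000 UMIs, 84 lower with the per-cell mean, and 26 lower with 5 counts added. They were 416 and 132, 38 and 5, and 3461 and 2289 with the 3 minimums. By state, lonidamine calls on the higher side without mixed cells were 27 in Ackr1-detected and 54 in Ackr1-undetected cells, with or without doublets. In female cells, calls for papain against PBS were 168 higher and 69 lower in detected and 234 and 222 in undetected cells. Between the states, 19 higher and 40 lower were called in female cells, and 6 and 25 at 2000 UMIs.

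Signs turned for papain against PBS in female cells for Ccn3 (0.38), Cd36 (-0.42) and Il33 (-0.048), in male cells for Fabp4 (5.23), Apln (0.90) and Ifit2 (-0.11), with the per-cell mean for Cd36 (-0.090), and without mixed cells for Ccl2 (0.10) and Hk2 (-1.23). In those sets of cells UMIs were under the minimum of 50 for Cd36 (47), Il33 (25), Fabp4 (14), Apln (10), Ifit2 (48), Ccl2 (36) and Hk2 (2). For lonidamine they turned in male cells for Ces2e (-0.043), Lhx6 (-0.42), Spock2 (0.83), Letm2 (0.32) and H2-Eb1 (0.16), and without mixed cells for Fabp5 (-0.20, and -0.27 without doublets too). The cause was not tested. Median-of-ratios scaling moved all log2 ratios by 0.09 and -0.04 in the 2 comparisons. Of the shares and counts of calls, 127 alternatives stayed close to the value reported and 58 moved. Depth limits genes with few UMIs: in the 19 Ackr1-detected PBS cells, 3 counts are 12.2 CPM.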

Other observations

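Genes of coagulation and the vessel wall showed few differences. Of 10 coagulation genes tested, F8, the clotting factor made by endothelium, was called higher with papain than with PBS, at 32.7 CPM with papain and lonidamine, 17.7 CPM with papain and 7.92 CPM with PBS (papain-to-PBS log2 ratio 1.14, 0.34 to 2.06). Without mixed cells its ratio was 1.33 on 44 UMIs, under the minimum of 50, and it was 0.80 in female cells. F3, the tissue factor that starts clotting, stood at 103, 58.9 and 39.1 CPM, and Thbd, the anticoagulant thrombomodulin, at 222, 207 and 208 CPM, and neither was called in either comparison. Nid1, a basement membrane linker, stood at 121, 83.8 and 33.6 CPM (papain-to-PBS log2 ratio 1.31, 0.93 to 1.73, but 0.92 without mixed cells), while the collagen IV gene Col4a1 stood at 449, 293 and 388 CPM and was not called. Of 9 tip cell and angiogenic genes, Apln and Ramp3 were called lower with papain than with PBS, Ramp3, a receptor partner for adrenomedullin, at 17.6, 18.1 and 70.8 CPM (-1.96, -2.47 to -1.49) and at -2.05 without mixed cells. Apln, at -2.45, had 18 UMIs and a ratio of -0.93 without mixed cells.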
